A study of Danio rerio with 2 samples.

Results

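The bone matrix and mineralization genes are 9 genes that were chosen by name, as the rows whose symbol equals col10a1a, sparc, spp1, alpl, phospho1, entpd5a, phex, panx3 or ifitm5, out of 23809 genes in the deposited table. Each name matched 1 row. The study sequenced poly-A RNA from intact zebrafish embryos collected 3 days after fertilization, in 2 libraries. The first library came from embryos kept from 4 hours post fertilization in 20 µM cyproconazole, a triazole fungicide that blocks sterol synthesis in fungi. The second came from untreated embryos, for which the labels name no vehicle. Each library was made from a pool of 40 embryos, and both pools carried the genotype SAGFF(LF)53A mitfab692/+, so that the controls too were heterozygous for a mutant allele of the pigment cell regulator mitfa. The library of the cyproconazole group held 20723647 reads in genes and that of the control group 18064965. These totals cover 23787 genes. Here and below, reads per library were recovered under a model from the deposited mean counts, log2 ratios and standard errors. Levels are given as FPKM (fragments counted per kilobase of a transcript, relative to all fragments). With 1 library per group the spread between embryos or pools is unknown, no difference below has a replicate check, and each value compares these 2 libraries. Beside the FPKM stands a read ratio, cyproconazole over control, scaled for depth, with an exact binomial 95% interval for counting error alone.

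Bone is made by osteoblasts, which secrete a collagen-rich matrix and then let calcium phosphate crystals form in it. Mineral growth depends on the balance between phosphate, which builds the crystals, and pyrophosphate, which blocks them, and enzymes on the cell surface and in matrix vesicles set that balance. In zebrafish embryos of this stage the first elements to ossify are a few bones of the head and shoulder, the throat teeth, and next the sheath of the notochord, so that bone-forming cells are a small part of the whole animal.

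On the log2(FPKM + 1) scale, 4 of the 9 genes were lower by 1.5-fold or more in embryos exposed to cyproconazole and 0 were higher by that much. Over all 18620 genes compared (at least 50 reads over both libraries and no FPKM of 0), the shares were 1.71% lower and 1.58% higher. The 4 lower genes were col10a1a, panx3, ifitm5 and entpd5a. The other 5, which are sparc, spp1, alpl, phospho1 and phex, lay within 1.5-fold, 2 of them below 0 and 3 above. The median difference of the 9 genes was -0.12 and that of all compared genes 0.02. By read ratio the same 4 genes were past 1.5-fold downwards and 0 upwards, beside 3.13% and 2.86% of 18632 genes. The counting interval lay wholly past 1.5-fold for 2 of the 9 genes downwards and 0 upwards, beside 0.934% and 0.365% of all genes, and at 2-fold on the FPKM scale the counts were 2 and 0, beside 0.446% and 0.269%. All 9 genes passed the minimum of reads. The 9 were chosen with earlier results of these data known, so these counts describe the list and are not evidence of its direction. In RNA of whole embryos, fewer cells of a type and less RNA per cell cannot be told apart.

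**Figure D1:**
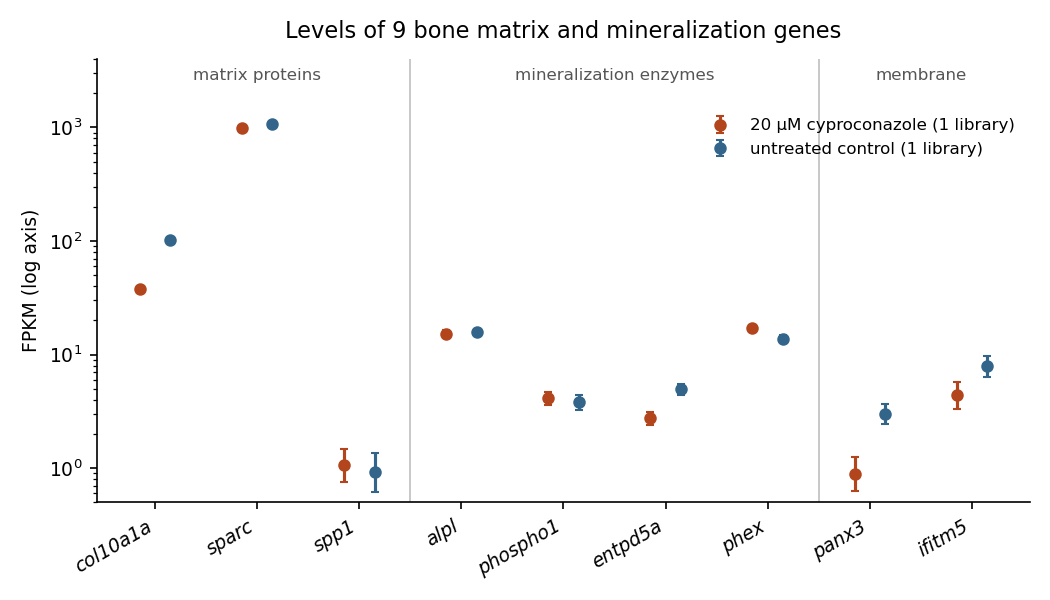
FPKM (log axis) of the 9 genes in the cyproconazole library and the control library, grouped into matrix proteins, enzymes of mineralization and membrane proteins. Points are single libraries and bars are 95% exact Poisson intervals of the reads, which cover counting error only. The cyproconazole point lies below the control point by the most for col10a1a, at 37.5 FPKM against 101 FPKM in the control, and for panx3, at 0.894 FPKM against 2.99 FPKM in the control.

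Among the matrix proteins, col10a1a (ENSDARG00000054753) encodes a network-forming collagen that zebrafish make both in osteoblasts and in hypertrophic cartilage cells. It had 37.5 FPKM in the cyproconazole library and 101 FPKM in the control library. The reads behind these values were 2420 in the cyproconazole library and 5731 in the control library, and a ratio of 1 would have given 6593 reads to cyproconazole. The read ratio was 0.367 (0.350 to 0.385) and the difference on the log2(FPKM + 1) scale -1.41, the 33rd lowest of 18620 genes. Of the 4 lower genes it is by far the most deeply counted, and its whole interval lies beyond 1.5-fold. Among genes with 1000 reads or more over both libraries, 1.30% had a read ratio at least 1.5-fold lower. In order of level, col10a1a was the second of the 9 genes in both libraries. Its place among all compared genes was 1882nd in the cyproconazole library and 689th in the control library.

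Most markers of cartilage, the other tissue that makes this collagen, had lower values in the same library. Of 17 cartilage markers, 16 were compared, and 9 of these lay past 1.5-fold downwards and 0 upwards. The summed level of the 16 was 1029 FPKM in the cyproconazole library and 1956 FPKM in the control library, and none was listed at 0. The read ratio of col2a1a, the main collagen gene of cartilage, was 0.543 (0.537 to 0.548). The regulator genes sox9a, sox5 and sox6 lay within 1.5-fold, at read ratios of 0.859, 0.824 and 1.01. The part of cartilage cells in the value of col10a1a was not tested. The paralog col10a1b was too shallow to compare, with 9 reads in the cyproconazole library and 11 in the control library, and whether reads shared with it were counted for either gene is not stated in the labels.

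The glycoprotein gene sparc (ENSDARG00000019353), also called osteonectin, encodes a protein that binds calcium and collagen and is made in many tissues of the embryo besides bone. It had 984 FPKM in the cyproconazole library and 1071 FPKM in the control library, from 18995 reads with cyproconazole and 18904 in the control. The read ratio was 0.873 (0.856 to 0.891). This interval lies off 1, as it does on the lower side for 14.5% of the 18632 genes compared by reads, and well inside 1.5-fold. The sparc gene alone held 79.1% of the reads of the 9 genes in the cyproconazole library and 69.9% in the control library.

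The summed reads of the 9 genes therefore mostly followed sparc and col10a1a. The sum was 24026 reads in the cyproconazole library and 27027 in the control library, a ratio of 0.773 (0.759 to 0.786). Without sparc the ratio of the sum was 0.538 (0.520 to 0.558). Without both sparc and col10a1a it was 0.949 (0.897 to 1.003), so that the 3 lower genes among the other 7 do not show in the sum. A count of genes and a sum of reads thus give different pictures of this list.

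The third matrix gene, spp1 (ENSDARG00000044276), encodes osteopontin, an acidic phosphoprotein that binds mineral and that macrophages and bone-resorbing cells also make in mammals. It had 1.08 FPKM in the cyproconazole library and 0.929 FPKM in the control library. Only 37 reads with cyproconazole and 27 in the control stand behind these levels, and the read ratio was 1.19 (0.706 to 2.03). At this depth no difference of spp1 was detectable, and the interval also holds a level 1.5-fold higher. Of 8 macrophage markers, 6 were compared and 0 passed 1.5-fold on the log2(FPKM + 1) scale in either direction. Their summed level was 18.2 FPKM in the cyproconazole library and 20.7 FPKM in the control library, with none listed at 0. The gene mpeg1.1, for a pore-forming protein of these cells, had a read ratio of 1.01 (0.783 to 1.30). By reads, 2 of the 6 lay past 1.5-fold downwards, mpeg1.2 at 0.599 (0.436 to 0.819) and mfap4 at 0.588 (0.392 to 0.876). The plain FPKM ratio was 0.605 for mpeg1.2, past 1.5-fold too, and 0.688 for mfap4, within it. The part of macrophages in the value of spp1 was not tested.

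**Figure D2:**
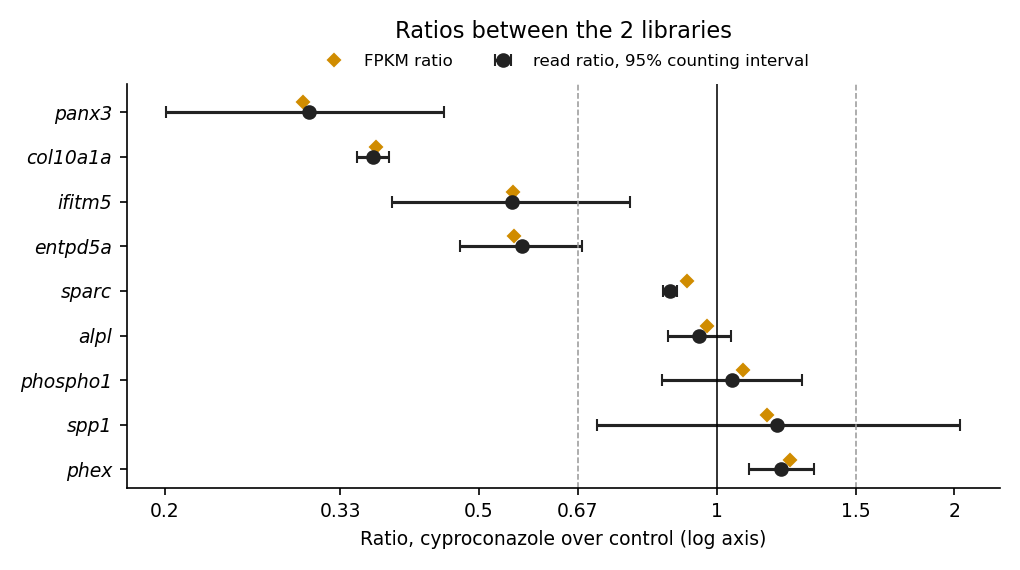
Ratio of the cyproconazole library over the control library for each of the 9 genes (log axis), as a read ratio with its 95% counting interval and as a plain FPKM ratio. Dashed lines mark 1.5-fold. The intervals of panx3 and col10a1a lie wholly below the lower line, those of ifitm5 and entpd5a cross it, and those of alpl, phospho1 and spp1 hold 1.

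The 4 enzymes of mineralization did not share a direction. The gene entpd5a (ENSDARG00000053481) encodes a nucleotide-splitting enzyme without which zebrafish do not mineralize their skeleton. It had 2.74 FPKM in the cyproconazole library and 4.94 FPKM in the control library. The reads were 209 in the cyproconazole library and 321 in the control library, with a ratio of 0.566 (0.473 to 0.676), and the difference on the log2(FPKM + 1) scale was -0.67. Its interval reaches just above the ratio that 1.5-fold lower stands for. Among genes with 200 to 1000 reads, 2.35% had a read ratio at least 1.5-fold lower.

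The paralog entpd5b, which is on the list of other phosphate genes, had 9.84 FPKM in the cyproconazole library and 11.0 FPKM in the control library, with a read ratio of 0.900 (0.800 to 1.01). The notochord sheath is another place where zebrafish embryos use entpd5a. Of 10 notochord markers, 9 were compared and 0 passed 1.5-fold on the log2(FPKM + 1) scale in either direction. By reads 1 did, loxl5b at 0.546 (0.381 to 0.776), singled out here after the fact. Its plain FPKM ratio was 0.547, so that only the added 1 kept it within. The summed level of the 9 markers was 749 FPKM in the cyproconazole library and 693 FPKM in the control library, and none was listed at 0. Much of that sum belongs to krt8, desma and col9a1b, which other tissues express too.

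The alkaline phosphatase gene alpl (ENSDARG00000015546) encodes the enzyme that breaks down pyrophosphate and frees phosphate at the mineralizing surface. Its level was 15.3 FPKM in the cyproconazole library and 15.8 FPKM in the control library, from 1000 reads with cyproconazole and 914 in the control. The read ratio of 0.951 (0.869 to 1.04) holds 1 and leaves 1.5-fold in either direction outside. The gene phospho1 (ENSDARG00000008403) encodes a phosphatase that releases phosphate from phospholipid head groups inside matrix vesicles in birds and mammals. It had 4.12 FPKM in the cyproconazole library and 3.81 FPKM in the control library, from 213 reads with cyproconazole and 177 in the control, a ratio of 1.05 (0.853 to 1.28). For both of these phosphatases a difference as large as that of entpd5a lies outside the counting interval, which says nothing of the spread between pools.

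Of the 9 genes, phex (ENSDARG00000062363) was the only one whose interval lay wholly above 1. It encodes a membrane peptidase of bone cells whose loss in humans causes phosphate wasting and soft bones. The level was 17.1 FPKM in the cyproconazole library and 13.8 FPKM in the control library. The reads were 1060 with cyproconazole and 763 in the control, with a ratio of 1.21 (1.099 to 1.33), short of 1.5-fold. An interval wholly above 1 was found for 15.8% of all genes compared by reads. The order of alpl and phex by FPKM differed between the libraries: phex stood above alpl in the cyproconazole library and alpl above phex in the control library. The Poisson intervals of these levels overlapped slightly, at 16.1 to 18.1 FPKM for phex and 14.4 to 16.3 FPKM for alpl in the cyproconazole library, and at 12.8 to 14.8 FPKM for phex and 14.8 to 16.8 FPKM for alpl in the control library.

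Both genes of membrane proteins were lower. The gene panx3 (ENSDARG00000004627) encodes a pannexin channel that in mammals passes ATP and calcium signals in differentiating osteoblasts and cartilage cells. It had 0.894 FPKM in the cyproconazole library and 2.99 FPKM in the control library. There were 35 reads with cyproconazole, where a ratio of 1 would have given 115, and 100 in the control, and the read ratio was 0.304 (0.201 to 0.451). This was the lowest ratio of the 9 genes and the 38th lowest of 18632 genes by reads. On the log2(FPKM + 1) scale the difference was -1.07, against -1.74 for the log2 of the plain FPKM ratio, since the added 1 FPKM is about as large as the level itself.

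The other pannexin genes did not pass 1.5-fold. The read ratio was 1.13 (0.977 to 1.31) for panx1a, 1.26 (1.08 to 1.49) for panx1b and 0.811 (0.664 to 0.990) for panx2, so that the interval of panx3 lies below those of its 3 relatives. In the cyproconazole library panx3 had the lowest level of the 9 genes, while in the control library spp1 did.

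The gene ifitm5 (ENSDARG00000105153) encodes a small membrane protein of osteoblasts that is altered in a human brittle bone disease. Its level was 4.39 FPKM in the cyproconazole library and 7.96 FPKM in the control library. The reads were 57 with cyproconazole and 90 in the control, the ratio 0.551 (0.388 to 0.776) and the difference on the log2(FPKM + 1) scale -0.73. Its interval runs from beyond 2-fold lower to within 1.5-fold of 1. Among genes with 50 to 200 reads, where panx3 and ifitm5 lie, 7.98% had a read ratio at least 1.5-fold lower, so that a ratio of this size is less rare at this depth than among deeply counted genes. The family member ifitm1, named by the current symbol of its identifier, had 23 reads with cyproconazole and 28 in the control, a ratio of 0.714 (0.393 to 1.29).

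**Figure D3:**
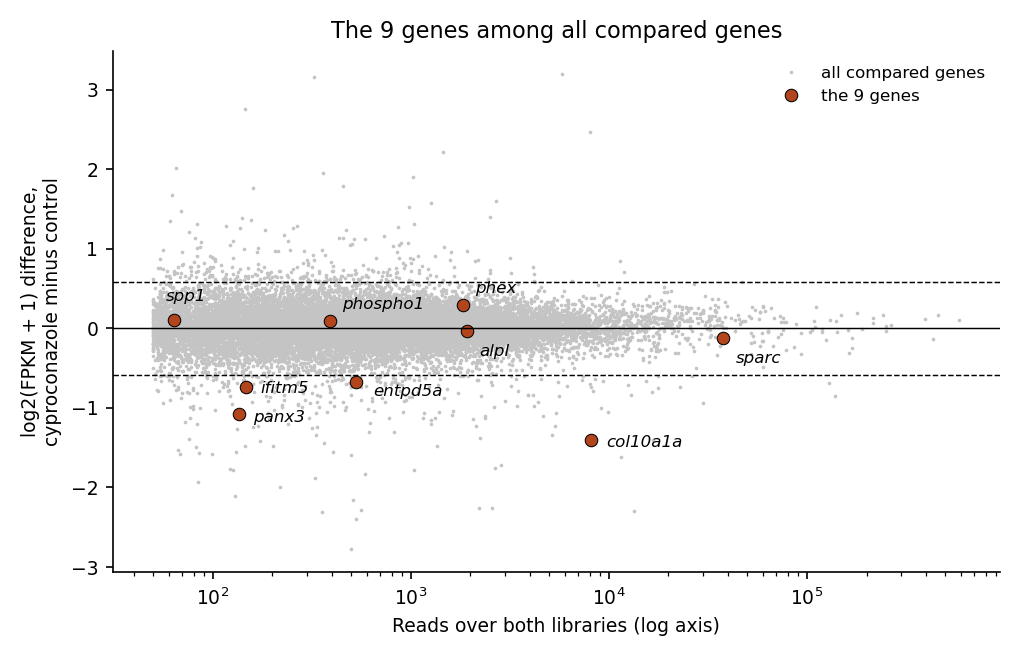
Difference on the log2(FPKM + 1) scale against the reads over both libraries (log axis) for 18620 compared genes (grey) and the 9 genes (filled). Dashed lines mark 1.5-fold. The grey cloud narrows with depth. Among deeply counted genes col10a1a at -1.41 lies far below most of the cloud, though some grey points lie lower still, and sparc at -0.12 lies within it.

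By rank among 18620 genes on the log2(FPKM + 1) scale, counted from the lowest, col10a1a was 33rd, panx3 66th, ifitm5 182nd and entpd5a 224th. The next, sparc, was 4232nd and phex, the highest of the 9, 16820th. The read ratio intervals of col10a1a and panx3 overlapped, as did those of panx3 and ifitm5 and those of entpd5a and ifitm5. The other pairs among these lower genes did not overlap, though the width of an interval depends on depth.

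Ratios within a library do not depend on the scaling between libraries. For every 1000 sparc reads there were 127 col10a1a reads in the cyproconazole library and 303 in the control library. For panx3 the same measure was 1.84 with cyproconazole and 5.29 in the control, for ifitm5 3.00 with cyproconazole and 4.76 in the control, and for entpd5a 11.0 with cyproconazole and 17.0 in the control. By contrast it was 52.6 with cyproconazole and 48.3 in the control for alpl and 55.8 with cyproconazole and 40.4 in the control for phex. Relative to sparc, then, the same 4 genes were lower whatever the scaling. As sparc itself had a read ratio of 0.873, this measure sets every other gene higher than its own read ratio. That ratio was 0.951 for alpl and 1.21 for phex.

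Beside the 9 genes stand other genes of the same pathway. Among 30 listed genes of phosphate and pyrophosphate handling, 23 were compared, and 0 passed 1.5-fold on the log2(FPKM + 1) scale in either direction, with a median difference of 0.02. The gene enpp1, whose enzyme makes pyrophosphate, had 16.9 FPKM in the cyproconazole library and 17.6 FPKM in the control library and a read ratio of 0.867 (0.797 to 0.943). The pyrophosphate exporter genes ankha and ankhb had ratios of 1.02 (0.707 to 1.48) and 0.853 (0.767 to 0.949). The phosphate importer genes slc20a1a, slc20a1b and slc20a2 had 1.05 (0.927 to 1.198), 1.03 (0.983 to 1.07) and 0.851 (0.798 to 0.907), and smpd3, a sphingomyelinase needed for bone mineral in mice, had 0.907 (0.806 to 1.02). The intervals of these 7 genes all lay above that of entpd5a, and the fgf23 gene was not analysed here. By reads 1 of the 23 was at least 1.5-fold higher, the intestinal phosphatase gene alpi.2 with 40 reads under cyproconazole and 16 in the control (2.17, 1.19 to 4.16), named after its value was seen. Its plain FPKM ratio was 2.28, so that only the added 1 kept it within 1.5-fold on the log2(FPKM + 1) scale.

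Other calcium-binding and matrix proteins of bone numbered 30 on the list, of which 15 were compared. Their median difference was -0.19, with 11 of 15 below 0, 1 gene past 1.5-fold downwards and 1 upwards. The lower gene was postna, a periostin gene of collagen-rich tissue, with 12.8 FPKM in the cyproconazole library and 21.6 FPKM in the control library (read ratio 0.524, 0.484 to 0.568). The higher gene was bgnb, a biglycan gene that encodes a small matrix proteoglycan, with 13.7 FPKM in the cyproconazole library and 7.46 FPKM in the control library (1.98, 1.72 to 2.29). Its paralog bgna had a read ratio of 0.535 (0.333 to 0.847), from 32 reads with cyproconazole and 52 in the control. The sparc relative sparcl1 had 0.915 (0.809 to 1.04), and the calcification inhibitor gene mgp had 0 reads with cyproconazole and 2 in the control, too few to compare. By reads the list held 2 genes past 1.5-fold downwards, postna and bgna, and 2 upwards, bgnb and the fetuin gene ahsg1 at 1.58 (0.980 to 2.61). The plain FPKM ratios of bgna and ahsg1, 0.540 and 1.83, were past 1.5-fold too. Only the added 1 kept them within on the log2(FPKM + 1) scale.

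Collagens of bone and the genes that make them had a median difference of -0.17 over 24 compared genes of 29, with 20 below 0, 4 past 1.5-fold downwards and 0 upwards. The bone collagen genes col1a1b and col1a2 had read ratios of 1.05 (1.03 to 1.06) and 0.972 (0.958 to 0.986), beside 0.787 (0.779 to 0.796) for col1a1a. For col1a1a the FPKM lay further apart than the reads, at 436 FPKM in the cyproconazole library and 701 FPKM in the control library, so that it passed 1.5-fold by FPKM and not by reads. The same held for plod1a, a collagen lysine hydroxylase gene, with 19.6 FPKM under cyproconazole and 31.4 FPKM in the control but a read ratio of 0.751 (0.690 to 0.818). The remaining pair of lower genes, which passed on both scales, was col5a2b, a fibril collagen gene at 0.339 (0.271 to 0.422), and serpinh1b, the collagen chaperone gene at 0.591 (0.562 to 0.622). Among the 9 genes the FPKM and read ratios lay close together, with the widest gap for sparc, 0.07 on the log2 scale. For sparc the FPKM ratio of 0.918 lies above the read ratio interval of 0.856 to 0.891. As both ratios come from the same libraries, that interval does not measure the error of the gap between them.

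For the regulators of bone-forming cells the median was 0.14 over 24 compared genes of 30, with 1 past 1.5-fold upwards and 0 downwards. The higher gene was twist1b, a transcription factor gene of head mesenchyme, with 15.8 FPKM in the cyproconazole library and 9.54 FPKM in the control library (1.53, 1.29 to 1.82). By reads 2 regulators were past 1.5-fold upwards, twist1b and the homeobox gene msx2a at 1.67 (1.17 to 2.40), and 1 downwards, the parathyroid hormone receptor gene pth1ra at 0.595 (0.347 to 1.01). Plain FPKM ratios of msx2a and pth1ra were 1.65 and 0.643, so that only the added 1 kept them within on the log2(FPKM + 1) scale. The osteoblast regulator runx2b had 43 reads with cyproconazole and 45 in the control, a ratio of 0.831 (0.534 to 1.29), and runx2a had 8 and 11 reads in these libraries, too few to compare. The sp7 and bglap genes, defining markers of osteoblasts, were not analysed here. A list of 6 markers of bone-forming cells therefore rests on 3 compared genes (col1a1a, col1a2 and runx2b), with a summed level of 746 FPKM in the cyproconazole library and 1017 FPKM in the control library. Almost all of the sum belongs to the collagen genes col1a1a and col1a2, as runx2b had 0.985 FPKM with cyproconazole and 0.808 FPKM in the control. Which cells made the collagen transcripts was not tested, so the sum is no measure of bone-forming cells. Most of the gap lies in col1a1a, at 436 FPKM with cyproconazole and 701 FPKM in the control but a read ratio of 0.787. By reads 0 of the 3 passed 1.5-fold. The list of pannexin and Ifitm-family genes also holds the gap junction gene cx43. The median of this list over 5 compared genes was -0.23, the value of cx43 itself. On the log2(FPKM + 1) scale 0 passed 1.5-fold. On the same scale panx1a and panx1b stood at 0.18 and 0.29, and panx2 and ifitm1 at -0.36 and -0.40. The plain FPKM ratio of ifitm1 was 0.658, past 1.5-fold, so that only the added 1 kept it within. Its read ratio of 0.714 lay within.

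**Figure D4:**
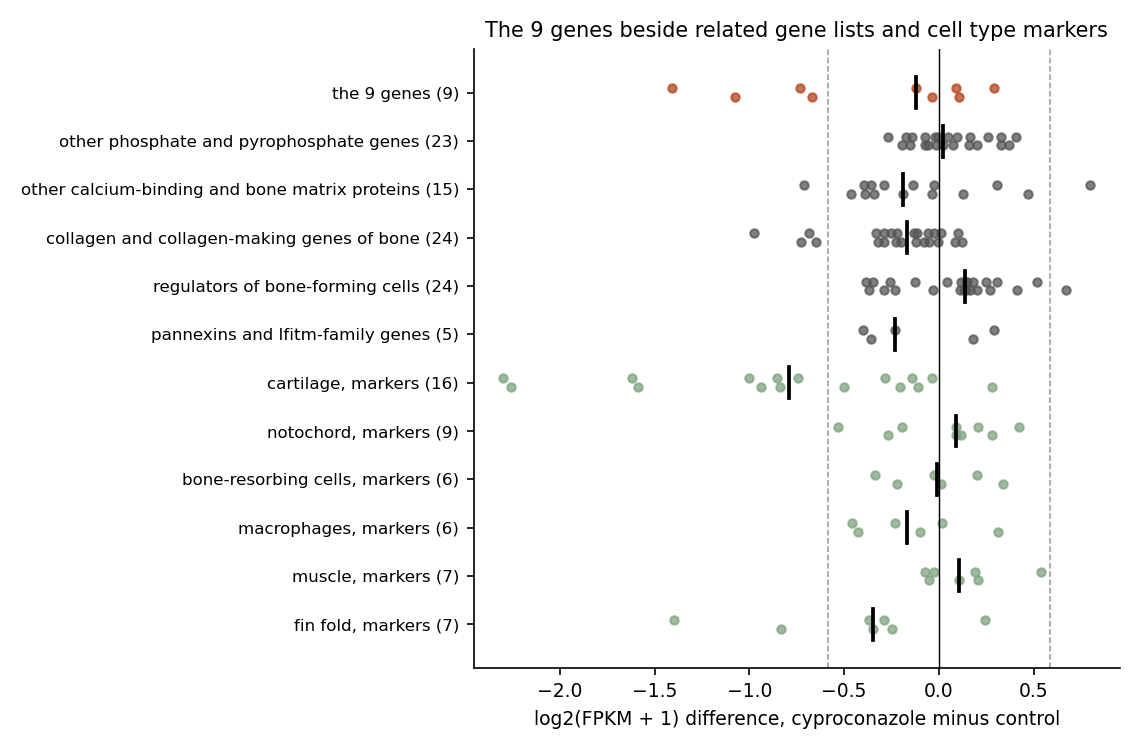
Differences on the log2(FPKM + 1) scale, cyproconazole minus control, for the 9 genes, 5 lists of related genes and 6 lists of cell type markers. Each point is 1 compared gene, the number in brackets is how many were compared, black bars are medians and dashed lines mark 1.5-fold. The 9 genes spread from -1.41 to 0.29, the phosphate and pyrophosphate genes from -0.27 to 0.41, and the cartilage markers have the lowest median, -0.79.

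Other cell types that could carry these transcripts were gauged by their markers too. Of 8 fin fold markers 7 were compared, and 2 of these, the actinodin genes and1 and and2, lay past 1.5-fold downwards, with a summed level of 344 FPKM in the cyproconazole library and 623 FPKM in the control library. Of 9 markers of bone-resorbing cells 6 were compared and 0 passed 1.5-fold, with a summed level of 50.4 FPKM in the cyproconazole library and 45.3 FPKM in the control library. Among these, read ratios were 1.14 (1.04 to 1.24) for ctsk, whose cathepsin digests bone collagen, and 0.915 (0.626 to 1.34) for the phosphatase gene acp5a. Of 7 muscle markers all were compared and 0 passed 1.5-fold on the log2(FPKM + 1) scale. Their summed level was 22206 FPKM in the cyproconazole library and 21272 FPKM in the control library. By reads 1 of them passed 1.5-fold, the muscle regulator gene myod1 at 1.51 (1.29 to 1.77). Its plain FPKM ratio of 1.52 passed too, so that only the added 1 kept it within. No marker of these lists was listed at 0 in either library. The part of any of these tissues in the values of the 9 genes was not tested.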

How the data were processed

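Per the submitters' processing notes the tools were Cufflinks 2.1.1, HTSeq 0.6.1, TopHat2 2.0.4, Picard 1.29 and SAMtools, with no role given, and the build was GRCz10. The authors deposited 1 table with an FPKM value per library, a mean count signal divided by size factors, a shrunken log2 ratio with its standard error, a score that is their quotient, and an unadjusted p-value, per the file headers. Those p-values compare single libraries and were not used.

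Differences are log2(FPKM + 1), cyproconazole minus control, on which changes of low genes come out too small. Calls of 1.5-fold by FPKM were made on this scale, so a low gene can pass by its plain FPKM ratio and not be called. All 23809 mean counts were whole multiples of 1 step within 0.01 step. Of the pairs of whole reads that fit each mean, the one that gave the deposited log2 ratio and, within 1e-05, its standard error in a negative binomial model with a normal prior was kept. This recovered 23787 genes (99.9%), all 9 members among them. It was tested on data simulated under the same model with the same step. That test cannot show whether the model holds for the deposited values. Scaling of the read ratios used a trimmed mean of M values (30% and 5% trimmed), in Python 3.11.15 (SciPy 1.17.1, NumPy 2.4.6, pandas 2.3.3). Intervals are exact binomial (Clopper-Pearson) or Poisson at 95% and reflect counting error alone, as the labels name no molecular identifiers that would separate PCR copies.

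Compared genes had at least 50 reads and no FPKM of 0. List genes were matched by the symbol in the table, and 7 by the current symbol of their identifier. Named by rule are the 9 genes, a fixed set of pathway genes and every pathway list gene past 1.5-fold on the log2(FPKM + 1) scale. Outside that rule, the paralogs entpd5b, panx1a, panx1b, panx2, ifitm1 and bgna were named after their values were known. So were the genes past 1.5-fold by reads but not on that scale, and the cell type markers other than those of the fixed set. The same holds for scpp1, scpp5, scpp6, scpp7, scpp8, scpp9, pth1a, tnfsf11, tnfrsf11a, tnfrsf11b, fam20ca and cx43. The members and lists were chosen with earlier results of these data known. Reads shared by paralogs or overlapping genes could not be told apart.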

Additional observations from a re-analysis of the deposited data

How the results depend on the processing

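No paired analysis was possible because only 1 library stands for each treatment, and none could be left out in turn. The 4 genes at least 1.5-fold lower became 2 at a 2-fold threshold (col10a1a and panx3), 2 when the counting interval had to lie wholly past 1.5-fold, 2 with at least 200 reads, which left 6 of the 9 genes, and 1 with 5 in place of 1 added to FPKM, which by construction shrinks the differences of low genes. The count stayed at 4 with 0.1 added, with recovered reads under 3 scalings, which differed little from each other, and after centring on the median gene. With no minimum of reads it could not change, as all 9 genes had passed the minimum. No member passed 1.5-fold upwards in any of these settings. The median ranged from -0.20 to -0.12 over all 9 genes and was -0.08 over the 6 genes left with at least 200 reads. Of 69 values of single genes under these alternatives, 60 moved by less than the counting error, 9 moved by more and 0 changed sign. Part of the 60 was fixed in advance. A changed minimum of reads leaves a gene's own value as it is. Centring shifts every gene by the same 0.02, less than the counting error of each of the 9. By reads sparc moved to -0.20 and panx3 to -1.72, and with 5 added to FPKM panx3 moved to -0.44, entpd5a to -0.36 and col10a1a to -1.32, while ifitm5 stood at -0.46, so that col10a1a alone of the 4 stayed past 1.5-fold. Depth limits spp1, panx3 and ifitm5 most.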

Other observations

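The shrunken log2 ratios of the 9 genes in the authors' deposited table stand in another order of size than the read ratios. Their sign is the same for 9 of 9 genes. This was all but fixed in advance, as the reads were recovered from these same ratios, so it is no check of them. In the authors' deposited table entpd5a had the most negative ratio of the 9, -0.33 with a standard error of 0.17, the 55th lowest of 23809 genes. For col10a1a the authors' deposited table has -0.08 with a standard error of 0.08, the 3579th lowest, although its read ratio of 0.367 (0.350 to 0.385) was lower than the 0.566 (0.473 to 0.676) of entpd5a and its reads were many more. A ranking by the deposited ratio would thus place col10a1a behind sparc, which stands at -0.16 in the authors' deposited table and had a read ratio of 0.873.

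The gene tnfsf11, named after its value was seen, encodes the signal with which bone-forming cells in mammals call up bone-resorbing cells. It had 11 reads in the cyproconazole library and 30 in the control library, a ratio of 0.319 (0.144 to 0.654), which was below the minimum of 50 reads for a comparison. Its decoy receptor gene tnfrsf11b had 42 reads with cyproconazole and 30 in the control, a ratio of 1.22 (0.744 to 2.01), and its receptor gene tnfrsf11a 196 reads with cyproconazole and 213 in the control, a ratio of 0.800 (0.655 to 0.976). Also below the minimum, the parathyroid hormone gene pth1a of the regulator list went the other way. It had 10 reads with cyproconazole and 1 in the control, a ratio of 8.69 (1.24 to 377).

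Among the secretory phosphoprotein genes, a family related to spp1 that serves bone and teeth, only scpp5 of the 6 listed had enough reads to compare, with 18.4 FPKM in the cyproconazole library and 23.9 FPKM in the control library and a read ratio of 0.768 (0.664 to 0.888). Of those with too few reads, scpp1, scpp6 and scpp9 had fewer with cyproconazole, and scpp7 and scpp8 had more. For scpp8 the reads were 22 with cyproconazole and 7 in the control, a ratio of 2.73 (1.13 to 7.57).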
